A study of Homo sapiens with 6 samples.

Results

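The 10 genes MITF, SOX10, PAX3, TYR, TYRP1, DCT, PMEL, MLANA, OCA2 and KIT, which mark or govern the melanocyte lineage, were examined for cytosine methylation and hydroxymethylation in A2058, a human melanoma cell line. The genes were chosen by name. Their regions are all peaks of the deposited lists on hg19 that overlap a gene or the 5 kb added at both of its ends. The 10 windows summed to 1077 kb, of which OCA2 and MITF made up 55.1%. They held 255 of the 593403 peak regions on chromosomes 1 to 22 and X of the 4 lists. All groups were A2058 cells that overexpress wild-type TET2 (TET2WT), cultured for 7 days in high or in normal glucose, and the inputs carry the same overexpression. hMeDIP-seq, which enriches DNA with an antibody against 5-hydroxymethylcytosine (5hmC), and MeDIP-seq, which uses an antibody against 5-methylcytosine (5mC), gave 1 list per mark and glucose level. The sources used here state neither the vector that drives TET2, nor the glucose concentrations, nor whether the cells derive from 1 clone. RNA was not measured here, so whether these cells express the 10 genes was not checked.

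Pigment cells descend from the neural crest and make melanin inside melanosomes. MITF is the transcription factor at the centre of their gene programme, and SOX10 and PAX3 act on its promoter. TYR, TYRP1 and DCT are the enzymes of melanin synthesis, PMEL builds the fibrils of the melanosome, MLANA is a melanosome protein, OCA2 is a melanosomal membrane transporter, and KIT is the receptor for stem cell factor. 5mC over a CpG-rich gene start commonly accompanies a silent gene, whereas 5hmC, the product of TET enzymes acting on 5mC, is commonly found in gene bodies and at enhancers.

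The gene starts differed in the marks they carried. KIT and OCA2 had a 5mC region across the start in both glucose levels, and at OCA2 a 5hmC region lay beside it. TYR, DCT and PMEL had 5hmC and no 5mC within 1 kb of the start, again in both glucose levels. MITF, TYRP1 and MLANA had no region of either mark within that distance. For MITF this holds only for the start of the gene span. Its other starts were not placed on hg19, and which start these cells use was not examined. The bases just before the starts show how unequal these genes are in CpG sites, where both marks are mostly found. In the promoters below, taken from RefSeq on GRCh38.p14, a build other than that of the peaks, the 250 bases before the start are given from 5′ to 3′ with each CG in capitals. They are shown for the genes at the extremes of the pattern: 5mC across the start (KIT, OCA2), 5hmC beside it (TYR), and neither mark (TYRP1, and MITF at its first start).
KIT (chr4:54657707-54657956, plus strand): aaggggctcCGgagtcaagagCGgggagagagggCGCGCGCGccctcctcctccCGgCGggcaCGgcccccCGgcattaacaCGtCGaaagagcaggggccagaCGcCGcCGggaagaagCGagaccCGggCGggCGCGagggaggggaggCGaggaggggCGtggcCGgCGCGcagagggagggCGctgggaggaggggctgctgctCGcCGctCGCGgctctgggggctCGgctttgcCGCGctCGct
OCA2 (chr15:28099316-28099565, minus strand): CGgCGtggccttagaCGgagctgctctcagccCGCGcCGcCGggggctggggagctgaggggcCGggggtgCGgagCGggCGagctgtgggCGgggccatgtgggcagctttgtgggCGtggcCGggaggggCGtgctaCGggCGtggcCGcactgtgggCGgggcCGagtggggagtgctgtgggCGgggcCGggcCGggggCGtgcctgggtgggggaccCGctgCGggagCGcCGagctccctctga
MITF (chr3:69739214-69739463, plus strand): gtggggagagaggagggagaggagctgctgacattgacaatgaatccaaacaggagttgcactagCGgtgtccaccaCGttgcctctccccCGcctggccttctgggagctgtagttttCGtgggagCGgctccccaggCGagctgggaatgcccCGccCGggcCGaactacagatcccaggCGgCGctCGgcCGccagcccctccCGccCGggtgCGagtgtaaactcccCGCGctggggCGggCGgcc
TYR (chr11:89177625-89177874, plus strand): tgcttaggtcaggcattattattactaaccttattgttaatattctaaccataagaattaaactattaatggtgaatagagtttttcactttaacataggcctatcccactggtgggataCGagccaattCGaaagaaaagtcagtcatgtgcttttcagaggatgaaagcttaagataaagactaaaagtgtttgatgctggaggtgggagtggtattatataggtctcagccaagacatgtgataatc
TYRP1 (chr9:12693135-12693384, plus strand): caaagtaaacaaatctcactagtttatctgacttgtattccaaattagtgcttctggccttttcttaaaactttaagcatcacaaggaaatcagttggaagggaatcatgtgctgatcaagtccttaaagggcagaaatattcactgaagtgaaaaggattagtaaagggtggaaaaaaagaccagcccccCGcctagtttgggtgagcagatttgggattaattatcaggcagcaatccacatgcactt
KIT held 34 CG and OCA2 28, the highest numbers among the 8 members with an entry, and 93.2% and 84.1% of the 35116 promoters in the table held fewer. The first MITF start held 20 CG, PAX3 17 and MLANA 4. TYR held 2 and TYRP1 1, and 14.7% and 6.06% of promoters held fewer. MITF had 3 entries, and the others held 7 and 4 CG. DCT had 2, with 16 and 2 CG. The hexamer CATGTG, searched on both strands as the core of the M-box through which MITF acts on pigment genes, was found in the entries of TYR, TYRP1 and OCA2 and in 1 of the 2 of DCT, and in 9.42% of all promoters. The DCT entry with 2 CG and the hexamer is the one at the start of the gene span used here. These matches describe letters only, and the other starts of MITF and DCT were not placed on hg19. At starts with few CG, a missing 5mC region does not show that those CG are unmethylated.

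**Figure D1:**
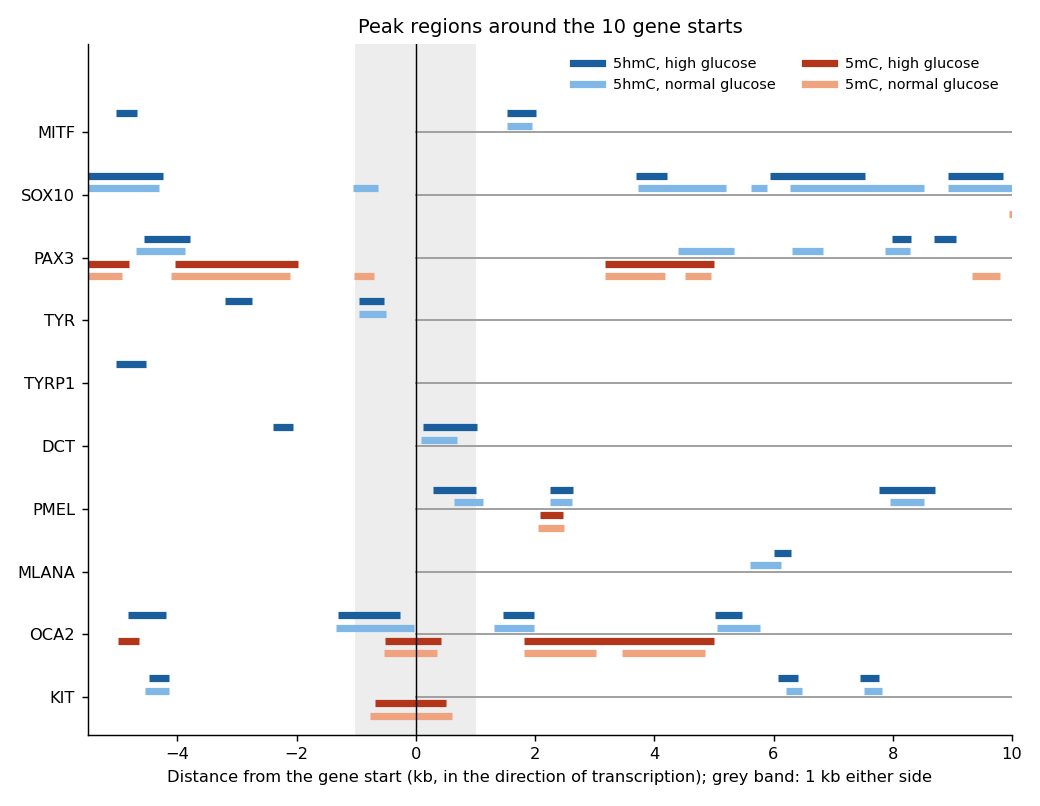
Peak regions of the 4 lists from 5.5 kb before to 10 kb after the start of each gene (x axis, kb in the direction of transcription), with 1 row per gene, grey lines for the gene and a grey band for 1 kb either side of the start. 5mC crosses the start of KIT and OCA2 at both glucose levels, and TYR, DCT and PMEL carry 5hmC inside the band.

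At KIT, the 5mC region spanned chr4:55523413-55524596 in high glucose, with a fold enrichment of 17.8, and chr4:55523323-55524706 in normal glucose, with a fold of 18.8. The summits held 32 and 31 fragments where 0.858 and 0.698 were expected. The nearest 5hmC region was 4135 bp from the start. At OCA2, 5mC lay at chr15:28344038-28344976 in high and chr15:28344109-28344994 in normal glucose, with folds of 9.07 and 10.3, and 5hmC at chr15:28344724-28345760 and chr15:28344496-28345791, with folds of 6.14 and 3.81. The marks overlapped at both glucose levels there.

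At TYR, 5hmC lay before the start, at chr11:88910080-88910504 in high and chr11:88910090-88910534 in normal glucose, with folds of 6.004 and 7.28 and 40 and 33 summit fragments. At DCT it lay just inside the gene, at chr13:95130941-95131852 and chr13:95131280-95131889, with low folds of 2.90 and 3.07. At PMEL it lay at chr12:56359153-56359880 and chr12:56359038-56359523, with folds of 3.26 and 7.07. The PMEL summits held 24 and 25 fragments, so the difference in fold came with the expected count, 6.66 in high and 2.68 in normal glucose. CDK2 and DGKA lie within 5 kb of PMEL in RefSeq on GRCh38.p14, so regions near its ends also lie near those genes.

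SOX10 and PAX3 each had 1 start region, found in normal glucose alone. That of SOX10 was 5hmC (chr22:38381181-38381591, fold 3.10) and that of PAX3 was 5mC (chr2:223164424-223164748, fold 4.95, with 7 fragments at its summit). Both were weak regions of their lists, with a -log10 p of 4.33 and 6.53, against a median of 8.70 and 10.2 over all regions of those lists. Their absence from the high-glucose list does not show a difference.

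Over the 10 windows, high and normal glucose gave nearly the same number of regions. There were 88 5hmC regions in high and 90 in normal glucose, and 39 and 38 5mC regions. 5hmC covered 4.66% of the summed windows in high and 4.92% in normal glucose, where the lists covered 3.90% and 4.23% of the genome. 5mC covered 2.78% and 2.55%, against 2.42% and 2.25% of the genome. For 5mC at both levels and for 5hmC in normal glucose, the excess over the genome was lost when a single gene was left out. Without OCA2, 5mC covered 1.65% of the other windows at each level, below the genome. 5hmC then covered 4.07% and 4.25%, still slightly above it. Without SOX10, 5hmC covered 4.18% in high and 4.21% in normal glucose, the latter below the genome. In high glucose 5hmC stayed above the genome whichever gene was left out. With equal numbers of top peaks the 5hmC order turned, to 88 and 77 regions. The 5mC order turned, to 21 and 27, among regions whose -log10 p reached 10.

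Most regions recurred at the other glucose level. Of the high-glucose 5hmC regions 71 of 88, or 80.7% (Wilson 95% interval 71.2 to 87.6), overlapped a normal-glucose one, and 69 of 90, or 76.7% (66.9 to 84.2), of the normal-glucose regions a high-glucose one. For 5mC the shares were 31 of 39, or 79.5% (64.5 to 89.2), and 33 of 38, or 86.8% (72.7 to 94.2). The regions found at 1 level were 17 and 21 for 5hmC and 8 and 5 for 5mC, that is 19.3%, 23.3%, 20.5% and 13.2%, where over all regions the shares were 24.1%, 31.2%, 28.3% and 21.5%. The 4 shares lay below those of the lists, and each Wilson interval held the value of its list. The intervals cover counting error only, and with 1 library per group no difference between glucose levels has a replicate check.

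**Figure D2:**
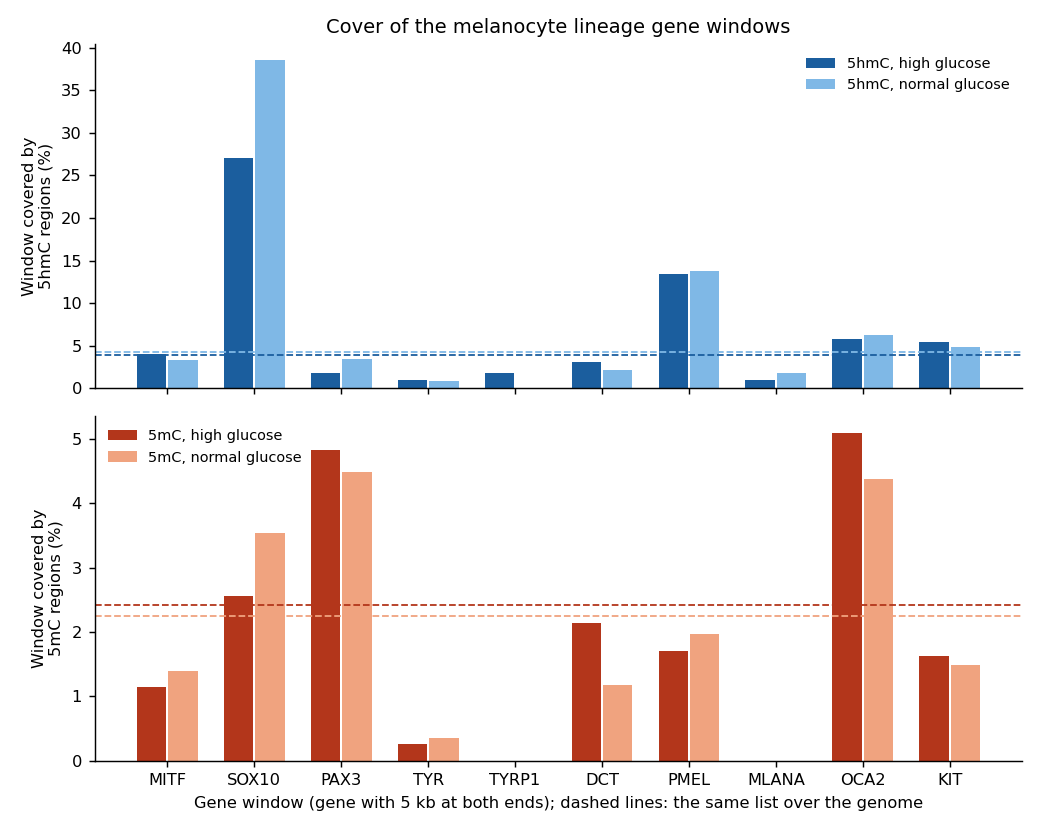
Percent of each gene window covered by 5hmC regions (upper panel) and 5mC regions (lower panel) in high and normal glucose, as bars from 0, with dashed lines for the cover of the same list over the genome. SOX10 reaches 38.5% for 5hmC in normal glucose, PAX3 and OCA2 have the highest 5mC cover, and TYRP1 and MLANA have no 5mC.

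Among the transcription factors, MITF carried both marks, mostly at separate places. It had 17 5hmC regions in high and 19 in normal glucose, covering 4.04% and 3.35% of the window, and 7 5mC regions at each level, covering 1.14% and 1.39%. In the first 45.8 kb of the gene 5hmC covered 6.65% and 7.12%, and no 5mC region lay there. Between 91.6 and 137 kb the order was the other way, with 5mC at 2.50% and 3.40% and 5hmC at 0% and 0.583%. The rest of the gene held both marks. From 45.8 to 91.6 kb 5hmC covered 7.51% and 4.14%, and 5mC 0.804% and 0.952%. From 137 to 183 kb the values were 4.78% and 4.41% for 5hmC and 1.71% and 1.76% for 5mC. From 183 to 229 kb they were 1.43% and 1.25%, and 0.957% and 1.13%. Of 28 places in the MITF window, where regions of any list that overlap count as 1 place, 21 held 5hmC alone, 6 held 5mC alone and 1 held both marks.

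The strongest 5hmC region of MITF lay 157.68 kb from the start in high glucose (chr3:69946013-69946600, fold 11.4) and 157.717 kb from it in normal glucose (chr3:69946159-69946560, fold 8.18). Its summit held 74 fragments in high and 41 in normal glucose. The next in high glucose, at chr3:69826842-69827554, had a fold of 10.5 and 53 fragments, and its normal-glucose partner at chr3:69826907-69827682 a fold of 5.55 and 41 fragments. The next in normal glucose was at chr3:69947314-69948395, with a fold of 7.40 and 35 fragments. The place with both marks was near the 3′ end. There the 5mC region had a fold of 10.5 and 19 fragments in high glucose (chr3:70008355-70008792) and a fold of 3.74 and 6 fragments in normal glucose (chr3:70008440-70008958), while 5hmC at the same place had folds of 4.28 and 2.41.

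**Figure D3:**
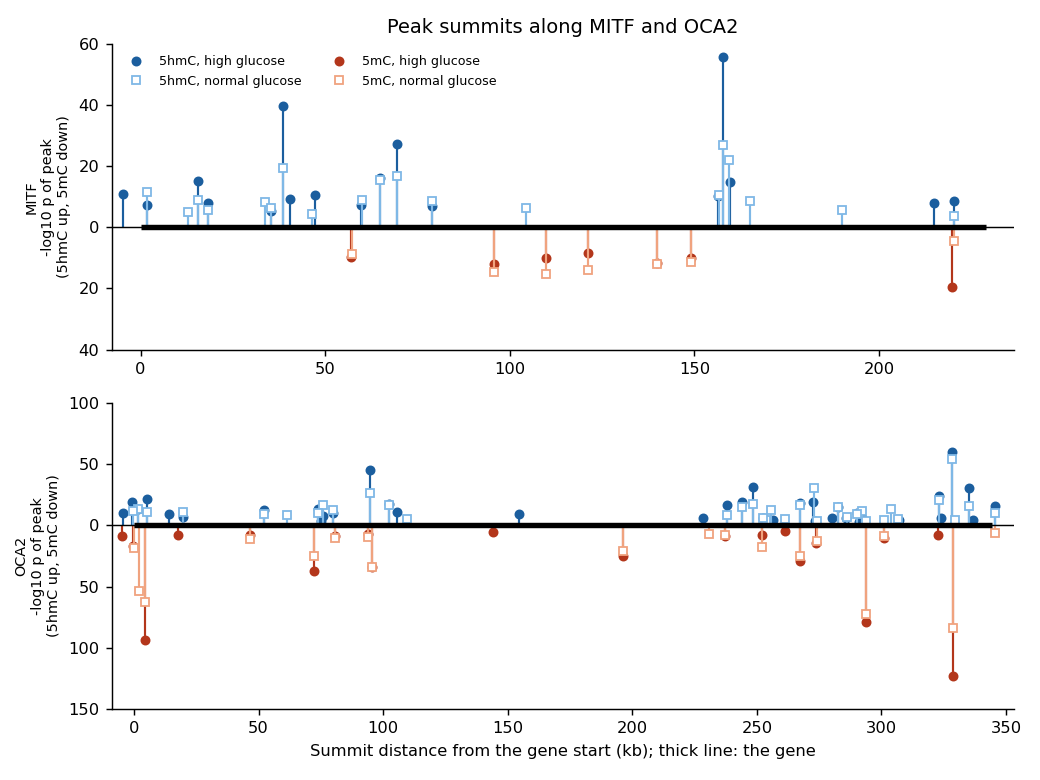
Peak summits along MITF and OCA2 by distance from the gene start (x axis, kb), with the -log10 p of each peak in its own list as height, 5hmC upward and 5mC downward, filled circles for high and open squares for normal glucose. In MITF 5mC summits fill the middle of the gene where 5hmC is sparse, and in OCA2 the tallest peaks of both marks stand at 328 and 329 kb, toward the 3′ end.

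SOX10 was the window richest in 5hmC. Its 8 regions in high and 9 in normal glucose covered 27.1% and 38.5% of the window, where chromosome 22 as a whole was covered at 6.397% and 7.57%. The 100 kb on either side were also rich, at 20.0% and 29.6%, so the cover was not confined to the gene. Within the gene 5hmC began 3.69 kb from the start in high and 3.72 kb from it in normal glucose. The wider cover in normal glucose lay mostly in 3 wide regions. From the distal part of the gene toward the start, normal glucose had regions of 2154, 2249 and 1476 bp (chr22:38369464-38371617, chr22:38372017-38374265 and chr22:38375343-38376818), where high glucose had 929 and 920 bp over the first, 1592 bp over the second and 520 bp over the third. In that order their summits held 30, 35 and 32 fragments in normal glucose, where 2.99, 3.02 and 3.02 were expected. Those of high glucose held 34 and 39, 25, and 52, where 6.08 and 5.00, 3.79, and 4.38 were expected. The wider cover came with lower expected counts at these summits, and over the second region also with more fragments, 35 against 25. Whether 5hmC itself differed was not tested. The 520 bp region had the highest -log10 p of the window, 37.5, with a fold of 9.86 (chr22:38376326-38376845), and its normal-glucose partner had a fold of 8.22. 5mC was listed only toward the 3′ end, with 1 region in high glucose (chr22:38369371-38369940, fold 6.50) and 2 in normal glucose (folds 5.76 and 4.71), all of which overlapped 5hmC. POLR2F lies within 5 kb of SOX10 or overlaps it in RefSeq on GRCh38.p14.

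PAX3 was rich in 5mC on both sides of its start. It had 5 5mC regions in high and 7 in normal glucose, covering 4.84% and 4.49% of the window against 1.77% and 1.61% of chromosome 2. The strongest in high glucose lay 3.71 kb inside the gene. It was 1 region of 1825 bp (chr2:223158711-223160535, fold 34.5), which normal glucose had as neighbouring regions of 1008 and 447 bp (chr2:223159541-223160548, fold 29.1, and chr2:223158759-223159205, fold 6.81). Further 5mC regions of 2062 and 1997 bp lay upstream (chr2:223165693-223167754, fold 12.1, and chr2:223165827-223167823, fold 13.6). At the outer edge of the window a region of 3545 bp in high and 3770 bp in normal glucose had folds of 28.8 and 34.1 (chr2:223168531-223172075 and chr2:223168641-223172410). Of the regions that overlap the window it had the highest -log10 p in normal glucose. Most of it lay beyond the window, which ends at chr2:223168715, as did its summits at chr2:223170759 and chr2:223170957. Its fold and -log10 p thus describe signal outside the window. 5hmC was sparser. Its 4 high-glucose regions covered 1.79% and its 7 normal-glucose regions 3.43% of the window. The 5hmC region at chr2:223094123-223094621, 69.3 kb into the gene, had a fold of 8.33 in high glucose, and its normal-glucose partner had a fold of 8.25.

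**Figure D4:**
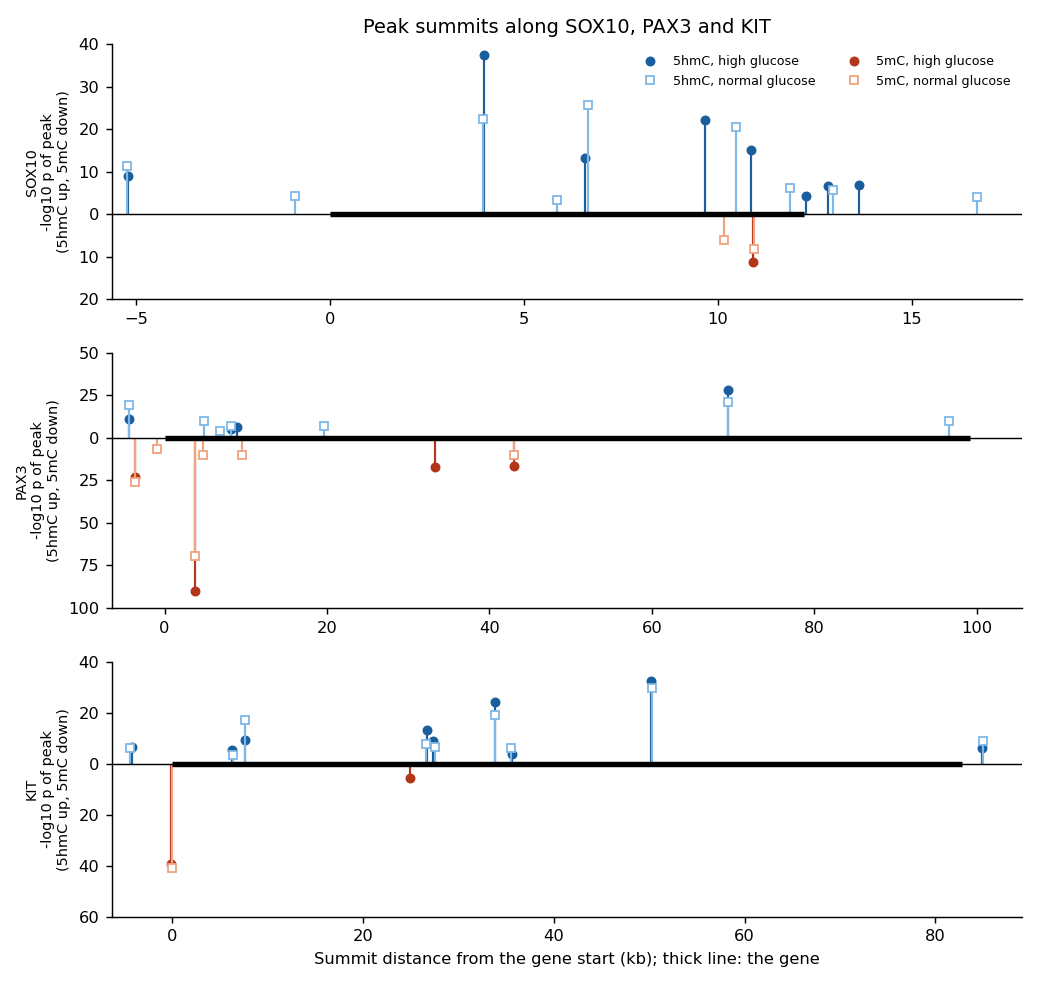
Peak summits along SOX10, PAX3 and KIT by distance from the gene start (x axis, kb), drawn as for MITF and OCA2. SOX10 shows 5hmC from 3.94 kb into the gene onward, PAX3 a 5mC peak 3.7 kb into the gene with a -log10 p of 90.2 in high and 69.6 in normal glucose, and KIT a 5mC peak at the start and 5hmC along the gene.

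The enzyme genes carried few regions by number, in windows of unequal length. TYR had 3 5hmC regions and 1 5mC region in each glucose level over a window of 127888 bp. 5hmC covered 1.03% in high and 0.838% in normal glucose, where chromosome 11 was covered at 5.10% and 5.53%, and the 100 kb on either side of TYR were lower still, at 0.187% and 0.132%. Besides the region before the start, 5hmC was found at both levels 100 kb into the gene, at chr11:89010800-89011238 with a fold of 6.202 in high and chr11:89010895-89011261 with a fold of 7.33 in normal glucose. The 5mC region, 38.7 kb into the gene (chr11:88949576-88949901 and chr11:88949577-88950024), had folds of 5.30 and 6.69.

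TYRP1 held a single region of any list, 5hmC in high glucose (chr9:12688360-12688865, fold 2.35, -log10 p 3.96), 4521 bp or more before the start. The nearest normal-glucose region lay 41034 bp from it. No 5mC region lay within 100 kb on either side. DCT had 3 5hmC regions in high and 2 in normal glucose, and 2 and 1 5mC regions. Its strongest region of either mark was 5mC beyond the 3′ end of the gene, at chr13:95085809-95086605 with a fold of 29.1 and 54 fragments in high glucose and at chr13:95085881-95086498 with a fold of 23.02 and 39 fragments in normal glucose. Within the gene the strongest was 5hmC 14.7 kb from the start (chr13:95117074-95117432, fold 5.26, and chr13:95116859-95117400, fold 6.12). The cover of the DCT window was near that of its chromosome. 5hmC covered 3.07% in high and 2.20% in normal glucose, against 2.73% and 2.91% of chromosome 13. 5mC covered 2.14% and 1.18%, against 1.86% and 1.77%.

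The melanosome genes differed widely. PMEL had 5 5hmC regions at each level, covering 13.5% in high and 13.8% in normal glucose, against 4.49% and 4.73% of chromosome 12. All 5 were found at both levels. The strongest in high glucose lay beyond the 3′ end (chr12:56347092-56347748, fold 6.55), with a normal-glucose partner at chr12:56347101-56347692 (fold 4.60). The strongest in normal glucose lay inside the gene (chr12:56357545-56357920, fold 7.597), with a high-glucose partner at chr12:56357537-56357917 (fold 5.81). Its single 5mC region lay inside the gene (chr12:56357704-56358082 and chr12:56357683-56358120), overlapped 5hmC at each level, and had folds of 6.27 and 4.33. MLANA had 1 weak 5hmC region at each level (chr9:5896808-5897099, fold 2.77, and chr9:5896405-5896933, fold 2.23) and no 5mC region.

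OCA2, the longest window, held the largest number of regions in each of the 4 lists. It had 37 5hmC regions in high and 35 in normal glucose, covering 5.85% and 6.29% of the window, and 20 and 18 5mC regions, covering 5.10% and 4.38%. Chromosome 15 was covered at 4.49% and 4.84% by 5hmC and at 2.45% and 2.29% by 5mC. The 100 kb on either side of OCA2 were covered more than the window, at 6.91% and 7.25% by 5hmC and at 13.4% and 12.2% by 5mC. The strongest place carried both marks. 5mC had a fold of 41.6 with 80 fragments in high glucose (chr15:28014819-28016888) and a fold of 32.8 with 55 fragments in normal glucose (chr15:28014790-28016854), and 5hmC lay inside it with folds of 13.7 and 13.8 and 70 and 63 fragments (chr15:28015497-28016535 and chr15:28015545-28016442). By -log10 p it held the strongest 5hmC region of the 10 windows in both glucose levels, and the strongest 5mC region in high glucose (123.1). In normal glucose its 5mC region (83.5) came after the one at the outer edge of the PAX3 window (85.0), whose summit lay outside that window.

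Other strong 5mC regions of OCA2 lay 4.46 kb and 4.52 kb into the gene (chr15:28339462-28342639, fold 35.5, and chr15:28339605-28341000, fold 25.1) and 294 kb into it (chr15:28049624-28052443, fold 29.8, and chr15:28049739-28052423, fold 29.9). The first of these was 1 region of 3178 bp in high glucose and 2 regions of 1396 and 1216 bp in normal glucose. The stretch from 138 to 207 kb was the poorest in 5hmC, with 0.492% in high glucose and none in normal glucose, and held 5mC at 1.89% and 1.32%. In the last 68.9 kb of the gene, from 276 to 344 kb, 5hmC covered 9.77% and 11.2% and 5mC 8.35% and 7.56%. Of 49 places in the window 28 held 5hmC alone, 7 held 5mC alone and 14 held both marks.

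KIT, the receptor gene, had 9 5hmC regions at each glucose level, and all 9 were found at both. They covered 5.47% of the window in high and 4.87% in normal glucose, against 2.30% and 2.43% of chromosome 4 and 2.22% and 2.27% of the 100 kb on either side. The strongest lay 50.2 kb and 50.3 kb into the gene (chr4:55574039-55575346, fold 7.44, and chr4:55574056-55575435, fold 10.4). The last 16.6 kb of the gene, from 66.2 to 82.8 kb, held no region. Besides the start, 5mC was listed once, in high glucose (chr4:55548758-55549081, fold 4.46). None of the 5hmC regions of KIT overlapped 5mC.

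5hmC and 5mC were found together in the windows about as often as in the lists. In high glucose 15 of 39 5mC regions overlapped 5hmC, or 38.5% (Wilson 95% interval 24.9 to 54.1), against 32.2% of all 5mC regions. In normal glucose 16 of 38 did, or 42.1% (27.9 to 57.8), against 39.7%. Of the 5hmC regions 15 (17.0%) and 17 (18.9%) overlapped 5mC, against 17.6% and 18% of all. OCA2 supplied 11 of the 15 and 10 of the 16. Without it the shares were 21.1% and 30.0%, and with equal numbers of top peaks their order turned, to 39.5% and 34.2%. An overlap of at least 50% of each region left 7.69% and 10.5%. Of the 128 places in the 10 windows, 86 held 5hmC alone, 19 both marks and 23 5mC alone, or 67.2%, 14.8% and 17.97%, where all 319166 places of the lists gave 63.8%, 13.9% and 22.3%. Of these places 13, or 10.2%, were in all 4 lists, against 7.41% of all places, and 9 of the 13 were in OCA2.

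At 1 of the 128 places, or 0.781%, 5hmC was listed in normal glucose alone and 5mC in high glucose alone, a pattern of 0.443% of all places. It lay in OCA2 (5hmC at chr15:28082897-28083431, fold 3.40, and 5mC at chr15:28082741-28083282, fold 3.51). Both regions were weak, with 14 and 7 summit fragments. Their -log10 p was 5.51 and 4.24, against medians of 8.70 and 10.5 over all regions of those lists. Their absence from the opposite list does not show a change. The converse, 0.142% of all places, was found at none of the 128. 5hmC in high glucose alone without 5mC was found at 16 places and in normal glucose alone at 16, or 12.5% each, where all places gave 12.9% and 16.9%.

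The strongest regions found at 1 glucose level alone were of modest height. For 5hmC in high glucose alone they lay in OCA2 (chr15:28238651-28239012, fold 4.503, 26 fragments), before the start of MITF (chr3:69783550-69783917, fold 5.08), before the start of OCA2 (chr15:28348643-28349292, fold 4.48), and again in MITF (chr3:69829077-69829377, fold 4.27) and OCA2 (chr15:28330305-28330852, fold 4.54). For 5hmC in normal glucose alone they lay in OCA2 (chr15:28040373-28040788, fold 5.90, 23 fragments), in PAX3 (chr2:223066966-223067261 and chr2:223158382-223159323, fold 5.22 each) and in MITF (chr3:69953566-69953832, fold 4.26, and chr3:69822222-69822530, fold 4.20). The second PAX3 region overlapped 5mC at both levels. These 10 were 510 to 17504 bp away from the nearest 5hmC region of the opposite list.

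For 5mC in high glucose alone, the strongest was in PAX3 (chr2:223130193-223130740), with a fold of 9.64 and 16 fragments, 9189 bp from the nearest normal-glucose region. The next 4 lay in OCA2 (chr15:28349102-28349453, chr15:28326806-28327137 and chr15:28021587-28021940) and DCT (chr13:95110019-95110343), with folds of 4.54 to 5.73 and 9 to 11 fragments. In normal glucose alone all 5 5mC regions had folds of 4.52 to 6.81 and 7 to 10 fragments. They lay in PAX3 (chr2:223153925-223154394 and the start region), OCA2 (chr15:28113475-28113813 and chr15:27998827-27999201) and SOX10 (chr22:38370262-38370595). The median -log10 p of regions found at 1 level was 6.402 and 5.51 for 5hmC and 7.23 and 6.53 for 5mC, against 12.9, 11.8, 14.2 and 14.6 for those found at both.

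Regions found at both levels were compared by their summit fragments. For each pair of regions that overlapped each other and no other, the fragments were divided by the local expected count. The ratio of this value in high over normal glucose was then taken. Its exact 95% interval covers the counting error of the fragments only, with the expected counts taken as known. A pair was called when its interval left out the median ratio of all pairs of the mark, 0.991 for 5hmC and 0.952 for 5mC. Of 67 5hmC pairs 4 were called higher and 7 lower in high glucose, or 5.97% and 10.4%, where 7.66% and 6.37% of all 134944 pairs were. Of 29 5mC pairs 2 were called higher and 0 lower, or 6.90% and 0%, where 4% and 3.77% of all 66971 pairs were. Of the 67 5hmC ratios 33 lay above and 34 below the median of all pairs, and of the 29 5mC ratios 12 above and 17 below.

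The 4 higher 5hmC pairs were in MITF (chr3:69826842-69827554, ratio 2.06, interval 1.34 to 3.17) and OCA2 (chr15:28008960-28009555, ratio 1.79, chr15:28249455-28250741, ratio 1.48, and the start region, ratio 1.74). The 7 lower pairs were in SOX10 (chr22:38373013-38374604, ratio 0.568), PMEL (chr12:56345490-56345787, ratio 0.524, and the start region, ratio 0.386), KIT (chr4:55574039-55575346, ratio 0.599) and OCA2 (chr15:28052045-28052546, chr15:28087973-28088820 and chr15:28268584-28269029, ratios 0.455 to 0.530).

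Some of these calls went with the expected count and not with the fragments. The OCA2 start pair had 35 fragments at both levels, against 4.86 and 8.45 expected. The KIT pair had more fragments in high glucose, 56 against 37, with 6.66 and 2.64 expected. When the fragments were set against the smallest expected count of each list in place of the local one, 1 5hmC pair was higher and 1 lower, where 0.793% and 0.808% of all pairs were, and 0 pairs were called in the same direction both ways. The higher pair was the strongest 5hmC region of MITF (ratio 1.57, interval 1.06 to 2.36) and the lower one was in OCA2 (chr15:28071525-28072286, ratio 0.611, 0.379 to 0.974). For 5mC 1 pair was called both ways, that of the 3′ part of MITF, where 19 fragments in high and 6 in normal glucose gave ratios of 3.03 (1.16 to 9.26) and 2.64 (1.01 to 8.08). By the second measure 0 5mC pairs of these genes were lower, and 0.676% and 0.541% of all 5mC pairs were higher and lower. Its summits in the high- and normal-glucose lists lay 380 bp apart, so they may not be the same site. The other 5mC pair called by the local count, in OCA2 (chr15:28147722-28148698), had a ratio of 1.85 by that count and 0.734 by the second measure.

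**Figure D5:**
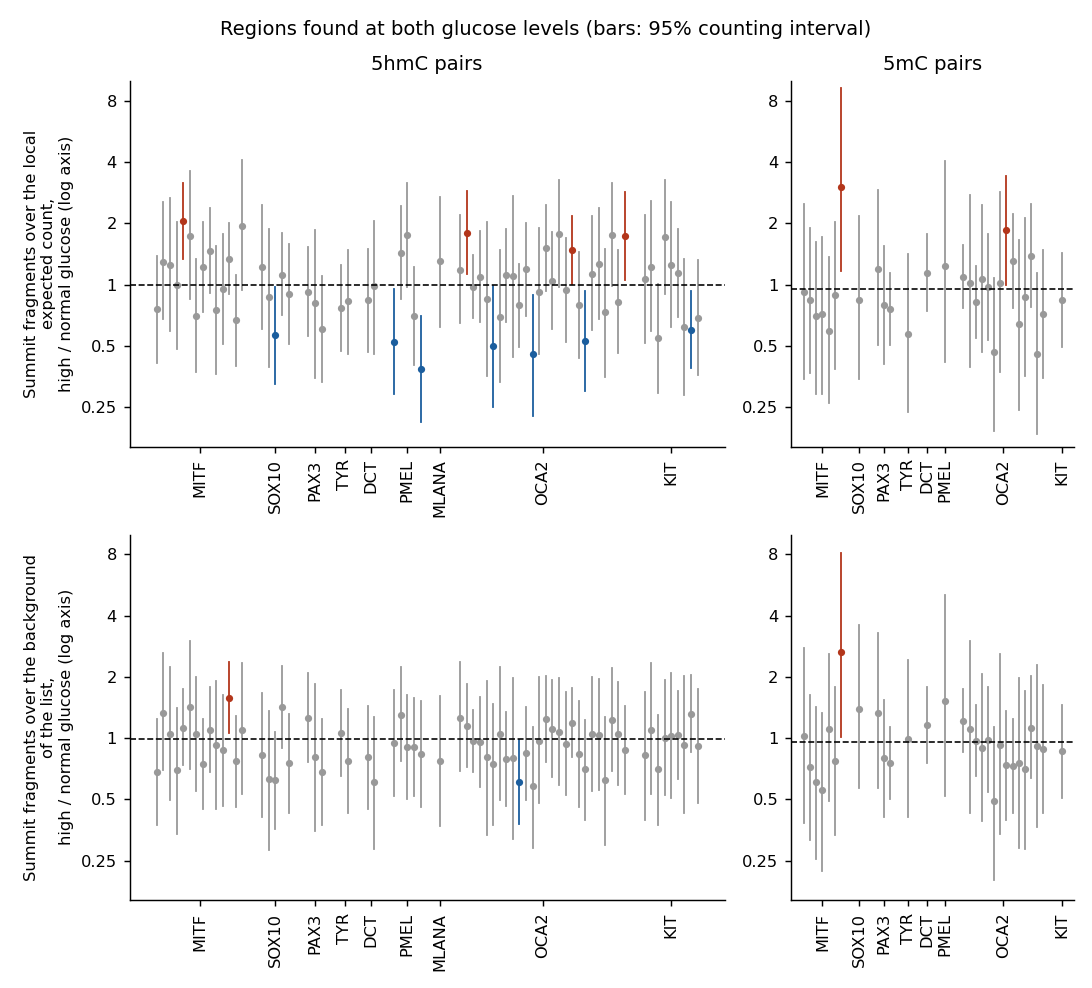
Ratio of summit fragments, high over normal glucose (y axis, log scale), for the 67 5hmC pairs (left) and 29 5mC pairs (right) in genome order within each gene, over the local expected count (upper panels) or the smallest expected count of the list (lower panels). Bars are 95% counting intervals, dashed lines the median of all pairs of the mark, red and blue the pairs called higher and lower; most intervals hold the median, and fewer pairs are called in the lower panels.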

How the data were processed

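The authors deposited 1 narrow peak list per immunoprecipitated library. The submitters' processing notes mention, with no roles, bedtools 2.17.0, SAMtools 0.1.18, Bowtie 1.0.0, CASAVA 1.8.2 and the build hg19. The sources used here do not name the peak caller or its control. The deposited columns hold the summit, the -log10 q-value and -log10 p-value, the fold enrichment (a ratio) and a display score, which was not used. Names of single peaks call high glucose Ctrl and normal glucose Low, and the labels were followed. Other chromosomes than 1 to 22 and X were left out. Genome and chromosome cover were taken over the span from the first to the last region of each chromosome in any list. Assembly gaps in that span were not taken out, which lowers these values, so small margins above them carry little weight. Positions are printed 1-based. The 2 input samples were not analysed here as samples.

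Gene spans on hg19 were fixed with the choice of genes, and 5 kb were added. Strand came from RefSeq, and for SOX10 and PMEL from general knowledge (both minus). Exons and introns were not used here, since no annotation on hg19 was at hand, and a planned list of other pigment cell genes was not analysed for the same reason. Regions were shared at an overlap of at least 1 bp. Summit fragments t and expected counts L were worked out from the fold, (t + 1)/(L + 1), and the Poisson p-value. The misfit was under 1% of a step of t for 99.997% to 99.998% of peaks. The search was checked on data simulated with the same formulas, which cannot show that the peak caller used them. For 5hmC the smallest L was 3.03 (high glucose) and 2.64 (normal), for 5mC 0.737 and 0.615. With the shortest peak as fragment length and an assumed genome of 2700 Mb these give 28.0, 27.5, 6.14 and 5.11 M reads, so the 5mC lists rest on fewer reads. Folds and p-values are the authors' and describe peaks within their list.

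No test was made, with 1 library per group. Shares carry Wilson and ratios exact 95% intervals (SciPy 1.17.1, NumPy 2.4.6, pandas 2.3.3, Python 3.11.15), which cover counting error only: reads lacking molecular identifiers may be copies of 1 molecule. All 10 genes are named. Of their regions those with the highest -log10 p per gene and mark, those within 1 kb of a start and up to 5 per list found at 1 level are given, and further regions were named after their values were seen. The genes, lists and alternatives were chosen with earlier results of these data known. The comparison of paired summits, its alternatives and the cover without each gene in turn were added after the data were seen.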

Additional observations from a re-analysis of the deposited data

How the results depend on the processing

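Regions with a -log10 p of 10 or more numbered 43 (high glucose) and 46 (normal) for 5hmC and 21 for 5mC in high glucose. The share of normal-glucose 5mC regions found at both levels was then 70.4%, and the share of normal-glucose 5mC regions with 5hmC 25.9%. With the backgrounds scaled and the same threshold there were 37 and 46 5hmC regions and 18 high-glucose 5mC regions, 66.7% of normal-glucose 5mC regions were shared, and 22.2% and 25.9% of 5mC regions in high and normal glucose carried 5hmC. These settings test fewer peaks by construction. When 50% of both regions had to overlap, 67.0% and 65.6% of 5hmC regions were shared and 7.69% and 10.5% of 5mC regions carried 5hmC. Without OCA2 there were 51 and 55 5hmC and 19 and 20 5mC regions, and 21.1% of high-glucose 5mC regions carried 5hmC. The cover of the windows minus that of the genome turned for 5mC without OCA2, to -0.774 percentage points in high and -0.602 in normal glucose, and for 5hmC in normal glucose without SOX10, to -0.0227. Over the background of the list, 1 5hmC pair was called higher, 1 lower and 1 5mC pair higher, and with summits within 100 bp 1 5mC pair was higher. The other values kept within their interval or within 1.5 times. Of the 80 values by gene and list, 2 moved by more than 1.5 times at a -log10 q of at least 2, 2 with equal numbers of top peaks, 4 with merging within 500 bp, 21 without added ends, 18 with 10 kb added, 43 at a -log10 p of 10 or more and 45 with the backgrounds scaled. No paired analysis was possible because each group has 1 library and the labels carry no replicate number. Leaving out a replicate was not possible for the same reason. The lowest 5mC regions rest on 6 or 7 summit fragments, where a region missing from the other list is not shown to be absent.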
